A study of Mus with 2 samples.

Results

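Barcodes carrying the transcripts of complement C1q were examined in single-cell RNA sequencing of mouse hindlimb bone marrow. They were chosen by their own C1q counts: a barcode was a member if it held at least 3 unique molecular identifiers (UMIs, 1 per captured transcript) of C1qa, C1qb and C1qc together and none of Cd79a or Siglech, which mark B cells and plasmacytoid dendritic cells. Of 18089 barcodes within the quality limits (at least 500 UMIs, at least 250 genes, at most 10% mitochondrial UMIs), 311 were members. Marrow came from a group named ground and a group named running, with 1 droplet library (Chromium 3′, v3 chemistry) of each. The labels give neither strain, age nor sex, and they do not say how many mice were pooled, how long or on what device the running mice ran, or what ground means beyond the contrast. The ground library held 8909 barcodes within the limits and the running library 9180, with median depths of 5993 and 5196.5 UMIs. Since each group had 1 library, no difference below has a replicate check, all intervals are at 95% and cover counting error only, and a difference in handling cannot be told apart from one between the groups. The libraries shared 24 barcode sequences, of which 2 belonged to a member in either library and 0 to a member in both.

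C1q is the recognition unit of the classical complement pathway and is built from 3 kinds of chain; it also tags dying cells for uptake. In marrow, resident macrophages make it. These cells sit at the centre of erythroblastic islands, engulf expelled red cell nuclei and worn red cells, break down haem with haem oxygenase (Hmox1), and store the iron in ferritin (Fth1, Ftl1) or export it through ferroportin (Slc40a1). Spic is a transcription factor that haem induces and that iron-recycling macrophages need, and Cd5l is a secreted scavenger protein of tissue macrophages. The 3 chain genes lie side by side on mouse chromosome 4 of GRCm38.p6 (RefSeq annotation): C1qb at chr4:136880126-136886200, C1qc at chr4:136889801-136892936 and C1qa at chr4:136895916-136898844. No other annotated gene lies between them.

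The C1q barcodes were about 3 times as frequent in the running library. They numbered 74 in ground, a share of 0.831% (exact binomial interval 0.653 to 1.04%), and 237 in running, a share of 2.58% (2.27 to 2.93%), a ratio of 3.11 (2.38 to 4.09). The counts chose these barcodes, so the ratio describes the 2 libraries. Most members were shallow, with median depths of 1417 UMIs in ground and 1427 in running, and 32 and 96 of them lay below 1000 UMIs. The share depended steeply on depth. Among barcodes of 500 to 1000 UMIs, 32 of 359 in ground (8.91%) and 96 of 319 in running (30.1%) were members. Among barcodes of 2000 to 5000 UMIs the shares were 0.347% and 0.879%, and at 5000 UMIs or more they were 0.414% and 1.60%. Running was the higher library in each of the 4 depth ranges, and the intervals of the 2 libraries overlapped only between 2000 and 5000 UMIs.

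C1q was also counted in barcodes picked by genes of other lineages. Of barcodes with at least 3 Cd79a UMIs, which should lack C1q, 4 of 1229 in ground (0.325%) and 5 of 1281 in running (0.390%) reached 3 C1q UMIs, at median depths of 3381 and 3713.5 UMIs among those below that count. Of barcodes with Csf1r and monocyte genes (Ccr2, F13a1 or Ly6c2), 21 of 1284 in ground (1.64%) and 31 of 1339 in running (2.32%) did so. Of barcodes with at least 10% globin UMIs, 2 of 215 and 4 of 151 (2.65%) did so, the latter close to the share of members over the whole running library. Members held 80.3% of all C1q UMIs in ground and 88.0% in running. Just below the threshold, at exactly 2 C1q UMIs, there were 15 ground and 33 running barcodes with median depths of 4766 and 6874 UMIs. Just inside it, at exactly 3, there were 4 and 29, with median depths of 8310.5 and 986 UMIs.

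**Figure D1:**
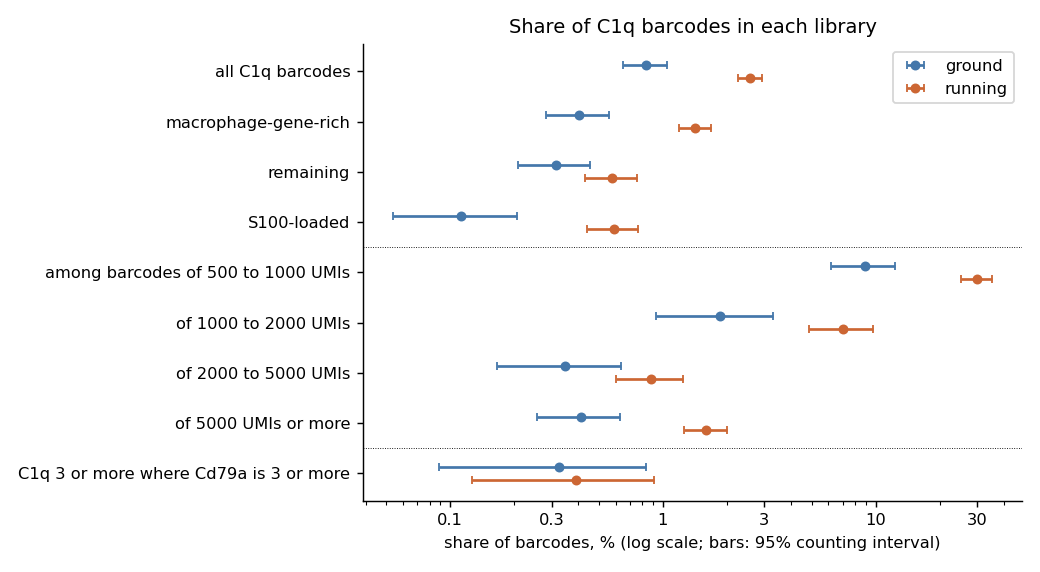
Share of barcodes, in percent on a log scale, that were C1q barcodes in the ground (blue) and running (orange) libraries, for all members, for the 3 sets described in the text, within 4 ranges of depth, and (bottom row) the share reaching 3 C1q UMIs where Cd79a was at 3 or more. Bars are 95% exact binomial intervals; all members stood at 0.831% and 2.58%, and the bottom row at 0.325% and 0.390%.

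The name macrophage was checked against genes outside the rule, and it held for only part of the members. At least 1 UMI of Hmox1, Cd5l or Spic was found in 52 of 74 ground members (70.3%) and in 197 of 237 running members (83.1%). In the Cd79a barcodes with fewer than 3 C1q UMIs, which were deeper, these shares were 4.33% and 4.39%. Hmox1 stood there at 8.01 (ground) and 7.14 (running) CPM (UMIs scaled so that every set has the same total). In barcodes with Csf1r and monocyte genes below that C1q count, of median depths 10949 and 9137 UMIs, it stood at 42.7 and 46.1 CPM. With at least 10% S100a8 and S100a9 and no Csf1r it was at 26.2 and 28.3. With at least 10% globins it was at 2.83 and 1.03. The shares were not counted in these other sets, so the contrast holds against Cd79a barcodes only. The genes with the highest fold over all other barcodes, after the C1q chains, were Vcam1, Fcna, Mrc1, Axl, Hmox1, Cd5l, Sdc3, Lpl, Maf and Igf1. Vcam1 (an adhesion molecule that holds erythroblasts and stem cells) stood at 1030 CPM in members and 11.5 CPM in the rest. Mrc1 (the mannose receptor) stood at 405 and 1.88 CPM, and Axl (a receptor for dying cells) at 395 and 1.95 CPM. These folds describe the members and are no test, because C1q and these genes come from the same cells.

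The members fell into 3 sets, drawn after the data had been seen, from 2 measures. One was the summed share of 12 macrophage genes other than C1q (Hmox1, Cd5l, Spic, Vcam1, Axl, Mertk, Slc40a1, Fcna, Mrc1, Siglec1, Maf and Adgre1). The other was the share of S100a8 and S100a9, which encode the most abundant cytosolic proteins of neutrophils. Members with over 5% S100a8 and S100a9 were called S100-loaded. Of the others, those with at least 0.5% macrophage genes were called macrophage-gene-rich, and the rest are called the remaining members. Near the cuts lay 9 members between 3 and 7% S100a8 and S100a9, and 11 between 0.4 and 0.6% macrophage genes.

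The macrophage-gene-rich set was the largest, with 36 ground and 130 running barcodes. Its share was 0.404% in ground (0.283 to 0.559%) and 1.42% in running (1.18 to 1.68%), a ratio of 3.505 (2.41 to 5.22). It was shallow, at median depths of 750.5 and 850.5 UMIs, close to the limit of 500. Its median mitochondrial share was 3.80% in ground and 3.51% in running, against 1.20% and 1.06% over all barcodes within the limits. The part of depth and of the mitochondrial limit in this share was not tested beyond the values given here. The S100-loaded set held 10 and 54 barcodes, at median depths of 2075.5 and 8615 UMIs, with shares of 0.112% and 0.588% and a ratio of 5.24 (2.64 to 11.5). The remaining set held 28 and 53 barcodes at median depths of 6170.5 and 5492 UMIs, with a ratio of 1.84 (1.14 to 3.02).

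**Figure D2:**
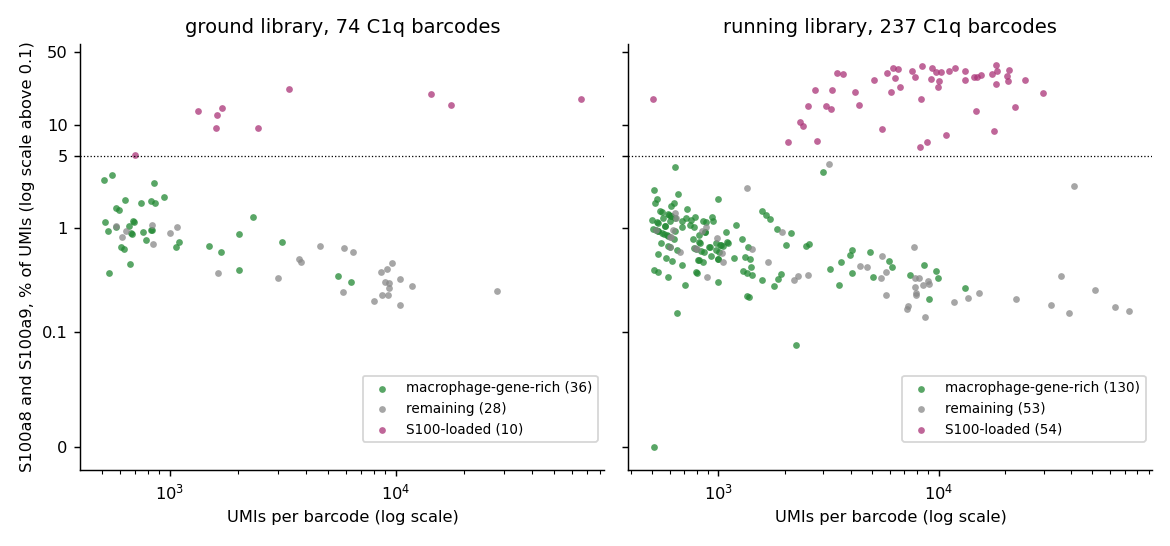
Each point is 1 C1q barcode of the ground (left) or running (right) library; the x axis gives its UMIs on a log scale, the y axis the percent of UMIs from S100a8 and S100a9 (log scale above 0.1), and the dotted line marks 5%. Macrophage-gene-rich barcodes (green, 36 and 130) lie mostly near 1000 UMIs or below, and S100-loaded barcodes (purple, 10 and 54) are mostly deep in running.

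The S100a8 and S100a9 load served as the check for carry-over of neutrophil RNA. The macrophage-gene-rich set was drawn at no more than 5% of these genes, so its low load is a description and no test. The same holds for its share of the neutrophil list, which includes both genes. In the macrophage-gene-rich set the median was 8 UMIs per barcode in ground and 7 in running, or 0.951% and 0.690% of UMIs. Cd79a barcodes with fewer than 3 C1q UMIs held a median of 14 UMIs in both libraries, at greater depth. At 500 to 1000 UMIs, all members held medians of 7.5 and 6 UMIs and Cd79a barcodes 8 and 6, the latter over only 6 and 5 barcodes. At 1000 to 2000 UMIs the median shares were 0.898% in ground members and 0.595% in running members, against 0.477% and 0.447% in 70 and 43 Cd79a barcodes. The whole neutrophil list came to 1.21% (ground) and 0.903% (running) of the summed UMIs of the macrophage-gene-rich set, with 3 of its 20 genes (Cd177, Stfa2 and Ly6g) at 0 in ground and 0 of 20 at 0 in running. The erythroid list made up 0.205% and 0.268%, with 6 and 3 of its 14 genes at 0; Klf1 and Rhag, both defining, had no UMI in either library.

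The S100-loaded barcodes were drawn at over 5% S100a8 and S100a9, so their higher share follows from the cut. Their median was 237.5 S100a8 and S100a9 UMIs in ground and 2196 in running, or 13.98% and 26.7% of UMIs. Neutrophil barcodes (at least 10% S100a8 and S100a9, no Csf1r, fewer than 3 C1q UMIs) held medians of 2143.5 and 1596. In running, the S100-loaded barcodes were deeper than those neutrophil barcodes, at 8615 against 5062 UMIs; in ground they were shallower, at 2075.5 against 6554. Among all barcodes that met the neutrophil limits, 4 of 3942 in ground (0.101%) and 37 of 3978 in running (0.9301%) reached 3 C1q UMIs, a ratio of 9.17 (3.29 to 35.4). High loads were also seen in other deep barcodes. At 5000 UMIs or more, over 5% S100a8 and S100a9 was found in 3 of 21 ground and 40 of 76 running members, and in 71 of 316 and 79 of 405 Cd79a barcodes with fewer than 3 C1q UMIs. The doublet caller Scrublet marked 0 of 74 ground members and 1 of 237 running members, an S100-loaded barcode. It marked 2.73% and 1.09% of all barcodes within the limits, and no barcode was removed for it here.

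The neutrophil transcripts of the S100-loaded barcodes were weighted toward genes of immature neutrophils, in running and, over only 10 barcodes, in ground. Ngp, Camp and Ltf encode proteins of the specific granules and are transcribed before neutrophils mature, whereas Retnlg is abundant in mature ones. Per 1000 S100a8 and S100a9 UMIs, the median running S100-loaded barcode held 109 Ngp, 101 Camp and 27.7 Ltf UMIs, and 9.16 of Retnlg. The median running neutrophil barcode held 25.3 Ngp, 9.505 Camp and 2.31 Ltf UMIs, and 61.8 of Retnlg. Summed over the running barcodes the gap was much smaller. The S100-loaded set held 124 Ngp, 124 Camp, 32.4 Ltf and 20.9 Retnlg UMIs per 1000. The neutrophil barcodes held 85.3, 87.8, 22.2 and 47.7. Ngp exceeded Retnlg in 36 of 54 S100-loaded running barcodes (66.7%) and in 40.3% of the running neutrophil barcodes. In ground the medians of the 10 S100-loaded barcodes were 78.6 for Ngp, 89.4 for Camp, 26.8 for Ltf and 38.1 for Retnlg. The ground neutrophil barcodes had 52.8, 24.9, 8.45 and 43.1. Ngp exceeded Retnlg in 6 of the 10 and in 49.2% of the ground neutrophil barcodes. The compared sets differed in depth, as given above, and the part of depth in these values was not tested. Elane and Mpo, granule genes of a still earlier stage, had 42 and 9 UMIs over the 54 running barcodes. In ground they had 535 and 525, of which 98.9% and 99.6% came from 1 barcode.

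Besides the neutrophil RNA, the S100-loaded barcodes held macrophage genes. In each library some of these lay close to the macrophage-gene-rich set in proportion to C1q, and others did not. In running, the S100-loaded barcodes held 55.5 Vcam1, 20.1 Mrc1, 18.3 Axl, 18.3 Maf and 20.1 Fcna UMIs per 100 C1q UMIs. The macrophage-gene-rich set held 49.2, 19.2, 18.5, 17.6 and 19.7. Less close in running were Hmox1 at 61.8 against 73.6, Slc40a1 at 47.9 against 38.9 and Cd5l at 19.2 against 14.1. In ground, where the S100-loaded set had 10 barcodes, it held 82.9 Vcam1, 38.1 Slc40a1, 36.2 Hmox1 and 8.57 Cd5l UMIs per 100 C1q UMIs, against 48.8, 13.9, 19.5 and 3.82 in the macrophage-gene-rich set. Closer in ground were Mrc1 at 15.2 against 18.5, Spic at 3.81 against 3.82 and Igf1 at 7.62 against 8.03. The differences between these sets were not tested. The remaining members of running had 7.03 Vcam1 and 6.08 Mrc1 UMIs per 100 C1q UMIs and 233 of H2-Aa, an MHC class II chain, against 10.3 in the macrophage-gene-rich set.

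**Figure D3:**
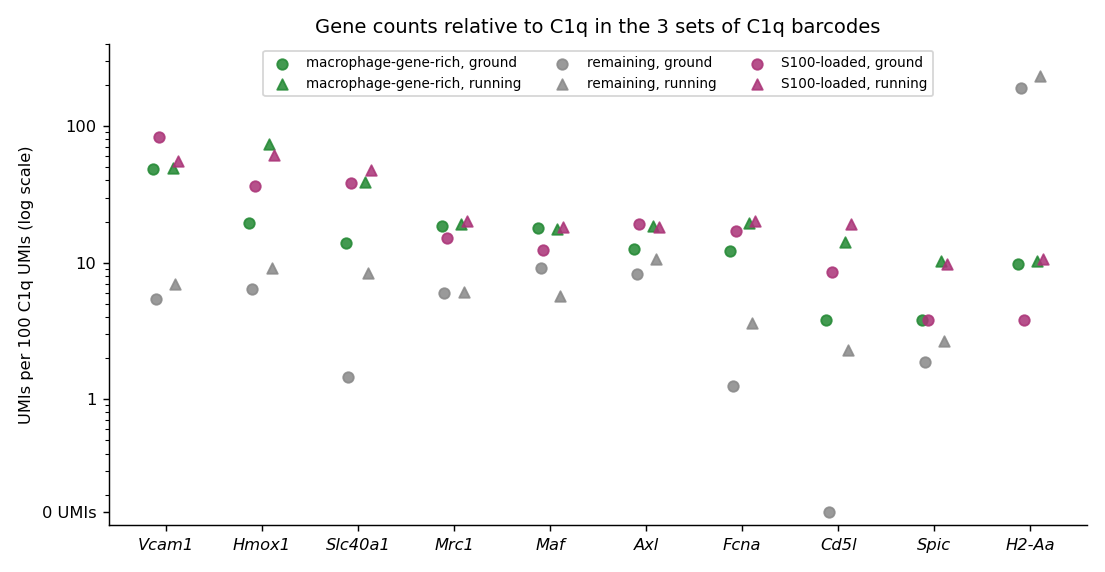
UMIs of 10 genes per 100 C1q UMIs (log scale) in macrophage-gene-rich (green), remaining (grey) and S100-loaded (purple) C1q barcodes of the ground (circles) and running (triangles) libraries. Purple and green triangles (running) lie close together for Vcam1, Mrc1, Axl and Maf, and purple circles (ground) lie above green ones for Hmox1 and Slc40a1. Grey symbols are low for macrophage genes and high for H2-Aa. All genes shown but H2-Aa were used to split the green and grey sets, so low grey symbols follow in part from that cut. Cd5l had 0 UMIs in the remaining ground set.

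The chains of C1q also differed in proportion between the sets. Over both libraries, C1qa, C1qb and C1qc supplied 44.8%, 29.5% and 25.7% of the C1q UMIs of the macrophage-gene-rich set, and 47.7%, 25.5% and 26.8% of those of the S100-loaded set. In the remaining set C1qb led, with 45.5% (42.4 to 48.6%), against 31.7% for C1qa and 22.8% for C1qc. The counting intervals of C1qb did not overlap between the remaining set and the other 2 sets, but they treat UMIs as independent. In ground, 1 remaining barcode held 70 of the 483 C1q UMIs of that set. The chain counts also chose the members, so these proportions are descriptions and no test. By library, the C1qb share of the remaining set was 41.6% (37.2 to 46.2%) in ground and 49.0% (44.7 to 53.4%) in running. In the macrophage-gene-rich set it was 34.3% (30.2 to 38.7%) and 28.3% (26.3 to 30.4%), so the intervals overlapped in ground and not in running.

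The remaining members were led, after C1q, by H2-Eb1, H2-Aa, Lpl, H2-Ab1, Axl, Cd74, Apoe and Aif1. H2-Eb1, H2-Aa, H2-Ab1 and Cd74 (the invariant chain) present peptides to helper T cells. The 4 genes made up over 1% of UMIs, with at least 1 UMI of the monocyte chemokine receptor Ccr2, in 14 of 28 ground and 14 of 53 running barcodes. The set was mixed: 40 of its 81 barcodes had over 1% of these 4 genes, and single running barcodes held up to 41.1% of their UMIs from the erythroid list and 21.2% from the B cell list. The set is given no cell type name, the whole group is called C1q barcodes here, and the name macrophage is kept for the gene list.

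Gene levels were compared between the libraries as CPM from counts summed over barcodes, among genes with at least 10 UMIs expected in the smaller library. Over all members, 4670 genes passed; 4.11% were 2-fold or more higher in running and 4.07% lower, with a median log2 ratio of -0.05. Members of at least 5000 UMIs supplied 79.9% of the summed UMIs in ground and 83.7% in running, so sums over all members weigh deep barcodes most. In the macrophage-gene-rich set, 675 genes passed; 4.44% were 2-fold or more higher in running and 3.11% lower, with a median log2 ratio of 0.00. That set was drawn partly on Hmox1, Slc40a1, Cd5l and Spic, with the same limit in both libraries, so values of these genes in it are descriptions. When the set was drawn on the other 8 genes instead (29 ground and 111 running barcodes), the log2 ratios were 1.69 for Hmox1, 1.34 for Slc40a1, 1.75 for Cd5l and 1.18 for Spic.

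Several genes of haem and iron handling stood higher in running within the macrophage-gene-rich set. Of 20 genes on that list 13 passed, and 4 were 2-fold or more higher (Hmox1, Slc40a1, Ftl1 and Cd163) and 0 lower, beside backgrounds of 4.44% and 3.11%. The list median was a log2 ratio of 0.25, beside -0.003 over all 675 genes. Of the 13, 10 lay above 0, of which 5 had an interval above 0, and 3 lay below 0. The share of all genes with an interval above 0 is not given here, and the intervals treat UMIs as independent. Hmox1 and Slc40a1 were among the genes used to draw the set. Hmox1, which opens the haem ring, had a median of 2195 CPM per barcode in ground (quartiles 526 and 4075) and 4981 CPM in running (quartiles 1110 and 9226). The summed level was 2184 CPM from 97 ground UMIs and 6658 CPM in running, from 1401 UMIs, a log2 ratio of 1.61 (1.31 to 1.92). As a mean of CPM over barcodes the levels were 2905 and 5807 CPM, a log2 ratio of 0.999. The distributions overlapped, and the running upper quartile lay just below the highest ground barcode, at 10067 CPM. A UMI of Hmox1 was found in 77.8% of ground and 77.7% of running barcodes, and in 61.1% and 73.8% after each barcode was thinned to 500 UMIs. The highest running barcode held 133 Hmox1 UMIs, 9.49% of the running total. In barcodes outside the C1q set Hmox1 stood at 26.3 and 26.7 CPM.

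Slc40a1, the only known cellular iron exporter, stood at 1554 CPM in ground (69 UMIs) and 3517 CPM in running (740 UMIs), a log2 ratio of 1.18 (0.82 to 1.56). Its per-barcode medians lay closer together, at 1450 and 1719 CPM, and upper quartiles were 1890 and 3963 CPM. A UMI was found in 69.4% and 68.5% of barcodes. Ftl1, the ferritin light chain, stood at 8804 and 18949 CPM, a log2 ratio of 1.11 (0.96 to 1.26), and its per-barcode medians were 10818 and 18207 CPM. Fth1, the heavy chain, stood at 14230 and 20764 CPM, a log2 ratio of 0.55 (0.42 to 0.67). Cd163, the scavenger receptor for haemoglobin bound to haptoglobin, had only 4 UMIs in 3 of 36 ground barcodes and 118 UMIs in 39 of 130 running barcodes. Its log2 ratio was 2.64, with a wide interval of 1.24 to 4.54. The other passing genes of the list lay within 2-fold, among them Blvrb (biliverdin reductase B) at -0.03, Trf (transferrin) at 0.18 and Slc48a1 (a haem transporter) at 0.63.

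**Figure D4:**
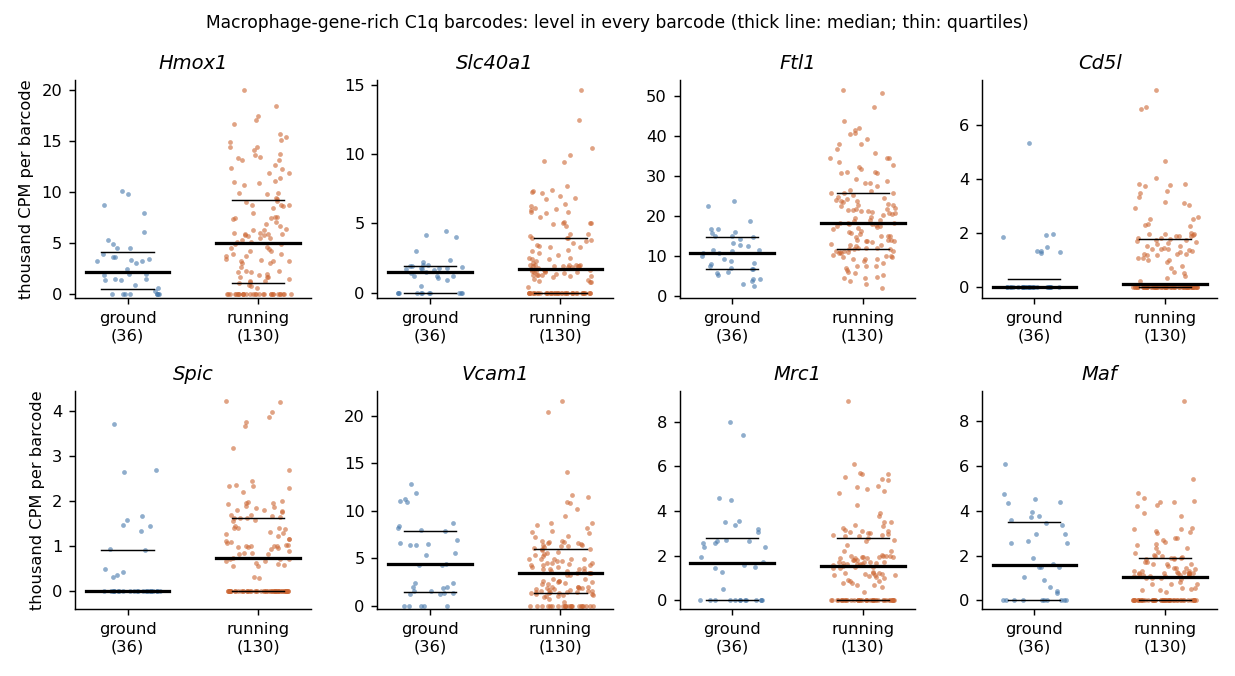
Level of 8 genes in each macrophage-gene-rich barcode of the ground (blue, 36) and running (orange, 130) libraries, in units of 1000 CPM; thick lines are medians and thin lines quartiles. Hmox1 (medians 2195 and 4981 CPM) and Ftl1 (10818 and 18207 CPM) are higher in running with broad overlap, whereas Vcam1 (4338 and 3393 CPM), Mrc1 (1657 and 1525 CPM) and Maf (1567 and 1043 CPM) are not.

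The transcription factor Spic and the scavenger gene Cd5l, both markers of the label, followed the same direction. Spic stood at 428 CPM in ground (19 UMIs) and 927 CPM in running (195 UMIs), a log2 ratio of 1.12 (0.43 to 1.88). A UMI of Spic was seen in 38.9% and 59.2% of barcodes, and in 25% and 39.2% after thinning. Cd5l stood at 428 CPM (19 UMIs) and 1274 CPM (268 UMIs), a log2 ratio of 1.57 (0.90 to 2.33). A UMI of Cd5l was seen in 25% and 50%, and 25% and 34.6% after thinning. As means of CPM over barcodes the log2 ratios were 0.74 for Spic and 1.12 for Cd5l. Of 16 macrophage transcription factors 7 passed, with Spic alone at 2-fold, beside 4.44% higher and 3.11% lower over all genes of the set. Maf was at -0.35 (-0.69 to -0.00), Irf8 at -0.46 and Nr1h3 (a sterol-sensing receptor) at -0.68.

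Other identity genes of the set lay within 2-fold, in both directions. Vcam1 stood at 5471 (ground) and 4453 CPM (running), a log2 ratio of -0.30 (-0.50 to -0.09). Mrc1 was at -0.26 (-0.59 to 0.09), Axl at 0.24 (-0.15 to 0.65), Mertk at -0.24 and Fcna (ficolin A, a lectin of the complement system) at 0.37 (-0.02 to 0.79). Of 20 genes of efferocytosis and scavenging 7 passed, and Cd5l was the only one 2-fold higher. In this list 0 were 2-fold lower, and over all genes of the set 4.44% were higher and 3.11% lower. Of 18 surface proteins 8 passed with 0 at 2-fold in either direction, beside the same shares, and a median log2 ratio of -0.14. No trait of either list is read from so few genes. Adgre1 (F4/80) was at -0.13, Csf1r at -0.14 and Sirpa at -0.15, each with an interval that spanned 0.

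The C1q chains were not higher in running within this set. C1qa stood at 4886 and 4082 CPM, a log2 ratio of -0.26 (-0.48 to -0.04), C1qb at -0.59 (-0.84 to -0.33) and C1qc at -0.04 (-0.34 to 0.27). These values touch the rule and carry no test. Of 16 complement genes 4 passed, the fourth being Cfp (properdin) at -0.07. Of these 4, 0 were at 2-fold, beside 4.44% higher and 3.11% lower over all genes of the set. Measured against C1q rather than all UMIs, Hmox1 was at 19.5 UMIs per 100 C1q UMIs in ground and 73.6 in running, a log2 ratio of 1.92 (1.62 to 2.23), and Slc40a1 at 13.9 and 38.9, at 1.49 (1.13 to 1.87). Vcam1 was at 48.8 and 49.2 per 100 C1q UMIs, a log2 ratio of 0.01 (-0.19 to 0.22), and Mrc1 and Maf were at log2 ratios of 0.05 and -0.04. Other genes were higher in running on this scale, with Fcna at 0.68 (0.29 to 1.10), Axl at 0.55 (0.16 to 0.96) and Lpl at 0.93 (0.53 to 1.35).

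The S100-loaded set, which holds other barcodes, gave smaller or less certain values per C1q UMI. Hmox1 was at 36.2 UMIs per 100 C1q UMIs in ground and 61.8 in running, a log2 ratio of 0.77 (0.29 to 1.29), and Cd5l at 8.57 and 19.2, at 1.16 (0.19 to 2.32). Spic was at 1.35 (-0.07 to 3.27) and Slc40a1 at 0.33 (-0.15 to 0.84), both with intervals that spanned 0. Cd163 was at -0.15 (-1.24 to 1.15), opposite in sign to the macrophage-gene-rich set. The ground side rests on 10 barcodes with 105 C1q UMIs. In the remaining set Hmox1 was at 6.42 (ground) and 9.13 (running) UMIs per 100 C1q UMIs, from 31 and 48 UMIs. On the CPM scale its direction there was the opposite, at 170 and 86.1 CPM.

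**Figure D5:**
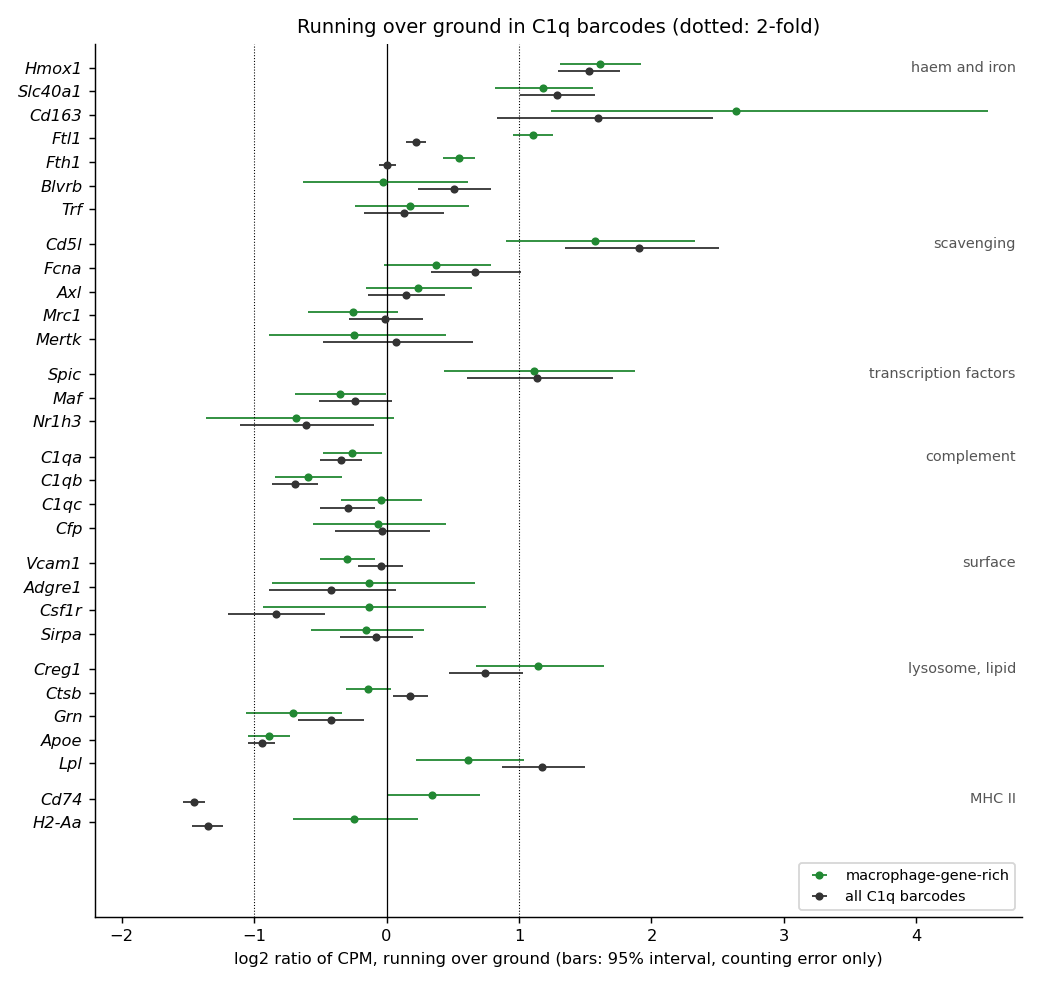
Log2 ratio of CPM, running over ground, for named genes by role, in macrophage-gene-rich barcodes (green) and in all C1q barcodes (black); bars are 95% counting intervals and dotted lines mark 2-fold. Hmox1, Slc40a1, Cd163, Cd5l and Spic lie beyond 2-fold in both sets, the C1q chains, Vcam1 and Mrc1 at or below 0, and Cd74 and H2-Aa beyond 2-fold lower only over all C1q barcodes.

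Lysosomal and lipid genes were mixed. Of 20 lysosomal genes 15 passed in the macrophage-gene-rich set. Of these, 2 were 2-fold or more higher and 0 lower, beside 4.44% and 3.11% of all genes of the set. Creg1 was among the higher, at 1.14 (0.68 to 1.64). The large cathepsin genes Ctsb and Ctsd were at -0.14 and 0.15, and Grn (progranulin) was at -0.70 (-1.06 to -0.34). Of 16 lipid genes 9 passed, with 0 at 2-fold or more higher and 2 lower, beside the same shares. Plin2 (a coat protein of lipid droplets) and Acp2 (lysosomal acid phosphatase) were 2-fold lower, at -1.11 and -1.24. Apoe, the main apolipoprotein of macrophages, stood at 10200 (ground) and 5518 CPM (running), at -0.89 (-1.04 to -0.73); 32.5% of its ground UMIs came from 1 barcode. Lpl (lipoprotein lipase) was at 0.62 (0.22 to 1.04).

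By rank, the highest ratios in the macrophage-gene-rich set were those of Cd163, Ccr3, Ifi27l2a, Selenow, Hmox1, Ccnd2, Cd5l, Ifitm3, Aldh2 and Fos. Ccr3, a chemokine receptor best known from eosinophils, had 7 UMIs in 4 ground barcodes and 131 UMIs in 48 running barcodes, at 1.98 (0.90 to 3.32). Of the 9 genes of the eosinophil list, 7 (Epx, Prg2, Prg3, Ear1, Ear6, Siglecf and Il5ra) had no UMI in this set in either library. Ccr3 and Ear2, the rest of the list, together held 10 UMIs in ground and 177 in running. Outside the members Ccr3 stood at 0.498 and 1.02 CPM. The lowest ratios were those of Ccl4, Gdf15, Atf3, Zfp706, Tent5a, Tmed2, Rbm25, Ccdc88a, Edf1 and Acp2. Ccl4, a chemokine gene, was at -3.83, but 18 of its 21 ground UMIs came from 1 barcode. Single barcodes also held 12 of 17 ground UMIs of Gdf15 and 15 of 16 of Atf3, both stress-induced genes. Without its highest barcode, Atf3 had 1 UMI left in ground, and no direction is read from it.

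Over all members other genes led the order. The highest ratios were those of Stfa1, Cxcl9, Cstdc4, Plaat3, Itgb2l, AA467197, Hmgb3, Slfn4, Abcb4 and Lmna. Stfa1 had 0 ground UMIs and 113 in running, at least 3.27 on the log2 scale against a floor of 3 UMIs over the ground members, and 56 of them lay in 1 barcode. The lowest were Vcan, Cd209a, Hspa1b, Ifitm1, Ace, Batf3, Ctsg, Hspa1a, Prss57 and Fn1, among them genes of monocytes (Vcan, Ace, Fn1) and dendritic cells (Cd209a, Batf3). Of the 278 ground UMIs of Ctsg, 275 came from 1 barcode. Over all genes that passed, 4.07% were 2-fold lower. Of 10 MHC class II genes 9 passed and 5 were 2-fold lower (H2-Aa, H2-Ab1, H2-Eb1, Cd74 and Ciita), with a list median of -1.35. In the macrophage-gene-rich set the 5 passing genes had a median of -0.10 and 0 at 2-fold, beside 4.44% higher and 3.11% lower. Cd74 stood at 0.35 (0.00 to 0.70) in that set and at -1.45 over all members. The remaining set, which carries these genes, made up 28 of 74 ground and 53 of 237 running members. Within it, the median share of H2-Aa, H2-Ab1, H2-Eb1 and Cd74 was 1.96% of UMIs in ground and 0.561% in running. Per 100 C1q UMIs, H2-Aa there stood at 191 in ground and 233 in running. The part of set size in the lower values over all members was not tested.

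The iron genes were compared over all members too. Over all members Hmox1 stood at 492 and 1417 CPM, a log2 ratio of 1.52 (1.30 to 1.76), Slc40a1 at 1.29, Cd163 at 1.60, Cd5l at 1.90 and Spic at 1.14. Cd163 was thus lower than its 2.64 in the macrophage-gene-rich set, and Ftl1 was at 0.22 over all members against 1.11 in that set. Of the 20 genes of the list 15 passed over all members, 4 were 2-fold or more higher and 0 lower, beside 4.11% and 4.07%. The fourth was Lcn2, a neutrophil granule gene as well as an iron-siderophore binder, which was at -0.40 in the macrophage-gene-rich set.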

How the data were processed

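The authors deposited 1 sparse matrix of unnormalised UMI counts for each library; per the file headers, Cell Ranger 5.0.0 wrote it. The submitters' processing notes name STAR and mm10, and other upstream steps are not given in the sources used here. Counts were used as deposited. Libraries totalled 85014860 (ground) and 79990530 (running) UMIs over 9162 and 9473 barcodes. Shares carry Clopper-Pearson intervals and ratios exact conditional binomial intervals, with no test, since each group had 1 library. The interval and ratio code was tested on simulated data. Genes were named by rule: the 6 label markers, the 20 highest folds over other barcodes seen in at least 25% of members (10 CPM added), the 10 highest and 10 lowest ratios without mitochondrial, ribosomal, haemoglobin, antigen receptor, unnamed and other-lineage genes, S100a8 and S100a9, list members with the largest ratios, and Rcn2, Nrp2 and Itgb1. Members and lists were chosen with earlier results of these data known. Doublets were not removed; Scrublet (scanpy 1.11.5) was an alternative. Thinning drew 500 UMIs per barcode. Python 3.11.15, numpy 2.4.6 and scipy 1.17.1 were used. Some genes that the rule would name are not reported here.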

Additional observations from a re-analysis of the deposited data

Results flagged for a closer look

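C1q barcodes were also present above the mitochondrial limit, among barcodes that the comparisons do not use. In ground 7 of the 253 barcodes outside the limits (2.77%, 1.12 to 5.62%) and in running 23 of 293 (7.85%, 5.04 to 11.5%) reached 3 C1q UMIs without Cd79a or Siglech, a ratio of 2.84 (1.18 to 7.83). Their median mitochondrial shares were 12.8% in ground and 12.5% in running. Summed over the 7 and over the 23 barcodes, Hmox1 stood at 1809 CPM (38 UMIs) and 2866 CPM (74 UMIs). Of them, 5 ground and 20 running barcodes met the gene limits of the macrophage-gene-rich set.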

How the results depend on the processing

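The share ratio of C1q barcodes, 3.11 as reported, lay between 2.69 (at least 5 C1q UMIs) and 3.71 (macrophage-gene-rich barcodes chosen on 8 genes, without Hmox1, Slc40a1, Cd5l and Spic) over 13 alternatives. Log2 ratios over 19 settings ranged from 0.999 to 2.68 for Hmox1, 0.93 to 1.79 for Slc40a1, 1.12 to 2.83 for Cd5l, 0.74 to 1.81 for Spic and 1.48 to 3.66 for Cd163. Counts of genes at 2-fold, 192 higher and 190 lower as reported, became 105 and 112 at 10 C1q UMIs, 74 and 44 when every barcode was thinned before the C1q limit, 30 and 21 in macrophage-gene-rich barcodes, 23 and 20 when these were chosen on 8 genes, 568 and 454 with mean CPM, 25 and 18 in thinned members, 446 and 402 with a filter of 5 expected UMIs, 73 and 86 with one of 20, and 1046 and 1195 with none. The MHC class II median of -1.35 became -0.60 at 10 C1q UMIs, -0.69 with thinning before the limit, -0.68 with mean CPM, and -0.10, -0.34 (8 genes) and 0.48 (mean CPM, the opposite sign) in macrophage-gene-rich barcodes. Cd74 turned from -1.45 to 0.35, 0.39 (8 genes), 0.48 (mean CPM) and 0.50 (highest barcodes left out) in them, and Atf3 to 1.33 with the highest barcodes left out, which leaves it 1 ground UMI. The secreted-factor median of -0.63 became 0.37 with thinning before the limit, 0.092 and 0.29 in macrophage-gene-rich barcodes (12 and 8 genes) and 0.00 without a gene filter. The interferon median of 0.26 became 1.26 in macrophage-gene-rich barcodes and 1.04 there with mean CPM, and the immediate early median of -0.61 became 0.26 in the latter. The scavenging median of -0.05 became 0.84 in thinned members, and the lysosome median of -0.34 became 0.34 at 10 C1q UMIs. The cause of these moves was not tested. Alternatives restricted to macrophage-gene-rich barcodes, the 20% mitochondrial limit and left-out highest barcodes were chosen after seeing the data. No paired analysis was possible because each group had 1 library. Depth limits genes of low level: with 36 ground barcodes of 44412 UMIs in the macrophage-gene-rich set, only 675 genes passed the filter.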

Other observations

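Interferon-response genes were few in the macrophage-gene-rich set. Of 29 measured genes 5 passed in that set, and 3 (Bst2, Ifi27l2a and Ifitm3) were 2-fold or more higher in running. The share over all genes of the set was 4.44%, and these 3 rested on 6, 5 and 6 ground UMIs. Over all members 17 passed, with 3 other genes 2-fold higher, 1 lower and a median of 0.26, beside 4.11% and 4.07%. Ifi27l2a, a mitochondrial-associated interferon-induced gene, had 5 UMIs in 4 ground barcodes and 93 in 38 running barcodes, of which 27 lay in 1 barcode, at a log2 ratio of 1.97 (0.70 to 3.63). Outside the C1q barcodes it stood at 370 and 783 CPM, at 1.08, a value inside that interval. Ifitm3, which blocks viral entry, was at 1.49 (0.31 to 2.98) in that set and at -0.07 outside the members. Cd79a barcodes held 434 and 708 CPM of Ifi27l2a, with a UMI in 59.3% and 76.7% of them. The difference between the set and other barcodes was not tested.

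Among 16 antioxidant genes 8 passed in the macrophage-gene-rich set. Hmox1 was the only one at 2-fold, beside 4.44% higher and 3.11% lower over all genes of the set. Prdx1 (a peroxiredoxin) stood at 0.73 (0.33 to 1.15). Gclm, which limits glutathione synthesis, had 2 UMIs in ground and 50 in running and did not pass. Of 18 immediate early genes 10 passed. Fos was 2-fold higher, and Atf3 and Klf6 were 2-fold lower, beside 4.44% and 3.11% of all genes of the set. Fos had 8 UMIs in 3 ground barcodes and 99 in 16 running barcodes, 28 of them in 1 barcode. Of the 53 ground UMIs of Klf6, 35 lay in 1 barcode. Of 16 MHC class I genes 4 passed, with a median of 0.15 and 0 at 2-fold, beside the same 4.44% and 3.11%.

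Rcn2, Nrp2 and Itgb1 were rare in C1q barcodes. Rcn2, a calcium-binding protein of the endoplasmic reticulum, had 1 UMI in ground and 12 in running over all members, and 1 in each library in the macrophage-gene-rich set. Nrp2 (a semaphorin co-receptor) had 9 and 47 UMIs, of which 1 and 31 lay in the remaining set. Itgb1 (integrin beta 1) had 54 and 146, at a log2 ratio of -0.53 (-0.99 to -0.05). No direction is read from Rcn2 at these counts.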
